A study of Mus musculus with 30 samples.

Results

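The histone genes of the mouse spinal cord were examined across the recovery from a cortical stroke. Members were the genes of the deposited expression table whose symbols mark them as replicative histone genes (Hist1h to Hist4h) or as variant histone genes (H2af, H3f3, H1f0, H1fx), with symbols marked as pseudogenes left out. This gave 62 of the 16995 genes. By symbol, 50 were replicative (5 for H1, 12 for H2A, 12 for H2B, 8 for H3 and 13 for H4), 11 were variant, and 1, H3f3aos, is a transcript antisense to H3f3a. GENCODE M21 lists 23 further genes whose symbols meet the same rule. The table holds no row for them, and they were not analysed here.

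RNA was taken from the intermediate laminae of the cervical cord (C5/C6) on the side denervated by the stroke, in adult female C57BL/6 mice. All stroke animals had received Rose Bengal and illumination of the skull over the right sensorimotor cortex, and the sham group, named Ctrl in the labels, was operated on without illumination. Tissue was collected at 4, 7, 14, 28 or 42 days post injury (dpi). The labels list 30 animals, and 29 have values: 5 sham animals, 4 at 4 dpi and 5 at each of 7, 14, 28 and 42 dpi, with 1 animal labelled 4 dpi (A9-3) having no column. The paper left 1 sample at 4 dpi out of its expression test as an outlier, without giving its number. The tissue holds neurons, glia and vessels together, so fewer cells of a type and less histone RNA per cell cannot be told apart.

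Histones are the proteins around which DNA is wound. The replicative genes supply them while DNA is copied: they lack introns, lie in clusters, and their mRNA usually ends in a short stem-loop in place of a poly(A) tail. The stem-loop is bound by SLBP, and replicative transcripts are degraded when DNA synthesis stops. Variant genes are transcribed outside S phase, are usually spliced and polyadenylated, and provide the histones that long-lived cells such as neurons place into chromatin. H2A.Z and H3.3 are the variants best known at active promoters and enhancers. The RNA was depleted of ribosomal RNA and was not selected for poly(A), so both kinds of transcript could be measured.

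The stem-loop separates these kinds of gene and is shown for that reason. It was searched on the sense strand of each gene's transcripts in GENCODE M21 (GRCm38) as the histone stem-loop consensus of 16 letters. A match was found for 36 of the 50 replicative members and for 1 of the 11 variant members, H2afx. Among the 16919 tested genes found in GENCODE, 95 (0.561%) had one. The forms below are given with 1 gene each, and capitals mark the 4 bases of the loop.
Hist1h2ae (H2A; chr13:23570668-23570683, minus strand): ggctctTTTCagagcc
Hist1h3e (H3; chr13:23561903-23561918, minus strand): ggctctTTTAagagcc
Hist2h2ac (H2A; chr3:96220418-96220433, minus strand): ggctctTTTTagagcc
Hist1h4c (H4; chr13:23698089-23698104, minus strand): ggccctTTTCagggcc
Hist1h4i (H4; chr13:22040966-22040981, minus strand): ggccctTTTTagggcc
Hist1h4a (H4; chr13:23760800-23760815, minus strand): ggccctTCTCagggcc
Hist1h4b (H4; chr13:23757366-23757381, plus strand): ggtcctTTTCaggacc
H2afx (variant H2A; chr9:44335240-44335255, plus strand): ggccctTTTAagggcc
The form printed for Hist1h2ae was shared by 19 members of the H1, H2A, H2B and H3 classes, and that of Hist1h4c by 7 members, all of them H4 genes. No match says only that these letters are absent from the annotated transcript. A poly(A) signal (AATAAA or ATTAAA in the last 60 bases) was present in 10 of 11 variant and 13 of 50 replicative members, and 11 of those 13 also held the stem-loop.

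The promoters of H2afz and Hist1h2ae are shown because these were the members that passed both limits at 28 dpi (below). They are RefSeq windows of the GRCm38.p6 build around the start of the gene, in the direction of transcription. The CCAAT box was searched on both strands, and so was the TATAAA box. Capitals mark every match, which reads in reverse complement where it lies on the other strand. The TATAAA match of Hist1h2ae lies on that other strand, and none lies in the direction of its transcription. The same bases read TATAAA in the overlapping window of Hist1h2bg, in the direction of that gene.
H2afz (chr3:137864237-137864536, plus strand): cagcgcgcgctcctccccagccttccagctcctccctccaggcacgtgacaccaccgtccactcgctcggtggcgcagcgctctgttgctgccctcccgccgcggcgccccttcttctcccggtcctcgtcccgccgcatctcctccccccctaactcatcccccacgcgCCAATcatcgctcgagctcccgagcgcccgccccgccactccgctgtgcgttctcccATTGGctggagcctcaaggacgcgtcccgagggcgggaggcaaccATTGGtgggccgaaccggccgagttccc
Hist1h2ae (chr13:23571171-23571470, minus strand): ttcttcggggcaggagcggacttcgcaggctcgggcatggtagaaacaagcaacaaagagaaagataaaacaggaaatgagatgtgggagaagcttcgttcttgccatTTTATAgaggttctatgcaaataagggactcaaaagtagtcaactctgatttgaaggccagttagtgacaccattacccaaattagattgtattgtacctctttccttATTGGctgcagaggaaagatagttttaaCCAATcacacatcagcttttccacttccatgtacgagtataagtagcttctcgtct
Windows were found for 55 members. CCAAT was present in 80.4% of the 46 windows of replicative members, in 60% of the 10 windows of variant members and in 37.4% of all 32851 windows. TATAAA was present on either strand in 60.9%, 10% and 13.6%, respectively. These are matches of letters, and no factor was measured on them.

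Values are normalized CPM (read counts scaled to library size) as deposited, rounded to 0.1, and the read depth behind them is unknown. The 18S ribosomal RNA row Rn18s-rs5 reached 30321 to 52929 in sham animals, 32754 to 817780 at 14 dpi, 44755 to 779160 at 28 dpi and 78737 to 457302 at 42 dpi. The 28 dpi values also moved with transcript length: the slope of an animal's log2 deviation from the sham mean on the log2 length was between -0.05 and 0.06 in sham animals and between 0.0021 and 0.11 at 28 dpi. Members were short genes, with a median longest transcript of 734 bases against 3233 for all genes. All 7 neuronal and all 5 oligodendrocyte markers were detected in every animal. The code at the start of the animal numbers (A1 to A12) is not explained in the labels, and no code held both sham and stroke animals, so that code and injury cannot be told apart.

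Mean values over all animals ran from 0.352 to 55.4. The highest was that of H3f3b, one of the genes encoding H3.3, at 55.9 ± 2.62 in sham animals (SD, n = 5), followed in sham animals by H1f0, the linker histone H1.0 of differentiated cells, at 52.3 ± 3.43 and by H3f3a, the other H3.3 gene, at 48.7 ± 4.63. Of the replicative members, Hist1h1e, a linker histone gene, was the highest at 38.3 ± 9.72. An average under 1 was found for 11 members, and 10 had a value of 0 in some animal. Per kilobase of longest transcript, the sham value was 46.9 for Hist1h4h (H4), the highest of all members, 36.3 for Hist2h2aa2 (H2A), 33.3 for H2afz (H2A.Z), 22.2 for H3f3b and 17.1 for H3f3a. On that scale Hist1h4h stood above the H2A.Z gene, although H2afz was higher without length. The annotated length can differ from the one the authors used, and these orders were not tested.

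Many members share sequence, so that reads can be divided between copies. Of the 31-base words of a replicative member, a median of 54.2% also occurred in another gene, and 28 of the 50 shared at least 50%. The median for variant members was 8.9%, but H2afz shared 34.5%, nearly all of it with Gm8203. Hist1h2ae shared 47.9%. Hist2h2aa2 shared 100% with Hist2h2aa1, Hist1h4m 91.7% with Hist1h4n, and H3f3c, annotated as a processed pseudogene, 79.3% with H3f3a. The values of such copies are uncertain one by one, and the classes were therefore also summed. The library kit does not mark strand, so H3f3a and H3f3aos, which overlap, cannot be told apart where they do. Replicative members lay mostly in the chromosome 13 cluster (38 of 50) and on chromosome 3 (9 of 50), whereas the 11 variant members were spread over 9 chromosomes.

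Stroke and sham animals were compared at each time to ask when histone transcripts changed. All 5 comparisons share the sham animals. At 28 dpi, 9 members had an adjusted p under 0.05, and all 9 were lower than in sham: 6 of the 11 variant members and 3 of the 50 replicative ones. Among all genes tested, 13% were lower by the same rule, so that the replicative share lay under the background. A fold change above 1.5 was also reached by 2 members, H2afz and Hist1h2ae, against 0.488% of all genes, and by none when animal A3-3 was left out. At 4, 7, 14 and 42 dpi, no member had an adjusted p under 0.05 in limma, where 0.106%, 0.0294%, 0.00588% and 0.0235% of all genes did.

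**Figure D1:**
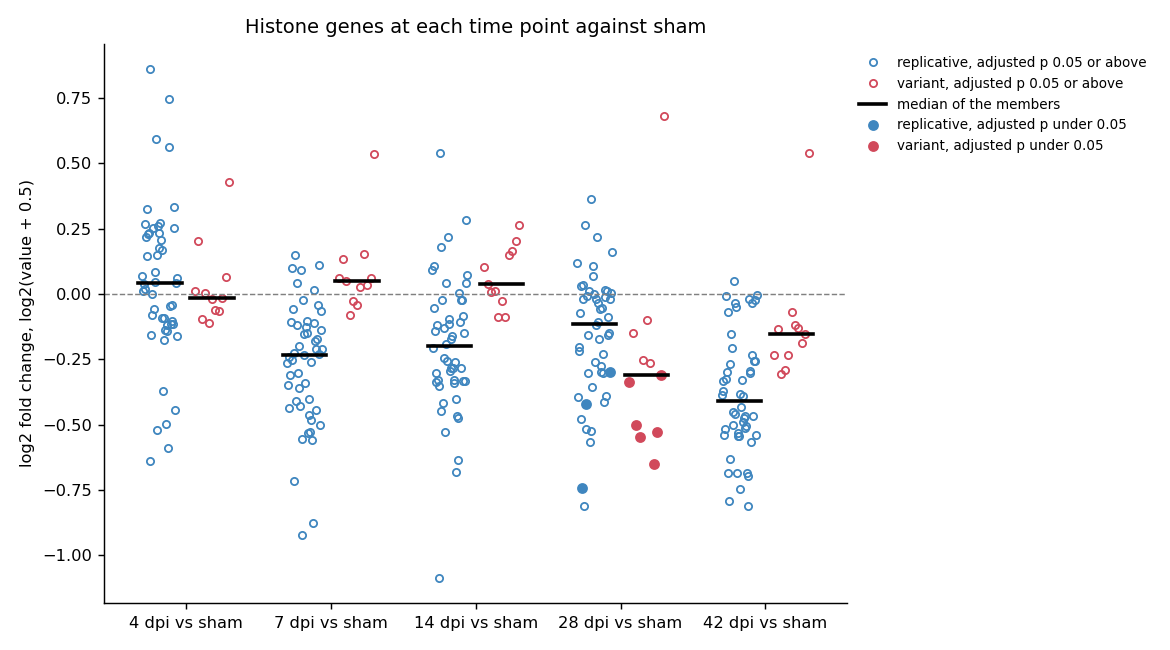
Log2 fold change of each histone gene (circles) at the 5 time points against sham, on the log2(value + 0.5) scale, for 50 replicative (blue) and 11 variant (red) members, with black bars at the medians. Filled circles have an adjusted p under 0.05 and occur only at 28 dpi; the replicative median is lowest at 42 dpi (-0.41) and the variant median at 28 dpi (-0.31).

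The medians of the groups differed in their course. In the order of the time points, the median log2 fold change of the variant members was -0.02, 0.05, 0.04, -0.31 and -0.15. The replicative medians were 0.04, -0.23, -0.20, -0.11 and -0.41 in that order. The median over all genes stayed within 0.01 of 0 in all 5 comparisons. Replicative members were lower than sham in 44 of 50 cases at 7 dpi and 49 of 50 at 42 dpi, and variant members in 10 of 11 at 28 dpi and 10 of 11 at 42 dpi. Without animal A4-1 the replicative median at 28 dpi was 0.0026, and without A4-3 it was -0.23, while the variant median stayed between -0.37 and -0.27 when any single animal was left out. These counts and medians are descriptions, since the members share reads and animals.

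H2afz, which encodes H2A.Z, fell at 28 dpi. The sham animals had normalized CPM of 32.0, 32.3, 42.6, 31.6 and 39.5. The animals at 28 dpi had 28.6, 12.6, 28.2, 25.1 and 21.5. Every 28 dpi animal was below every sham animal, and A3-3 was the lowest by a wide gap. The mean was 23.2 ± 6.58 (SD, n = 5) against 35.6 ± 5.10, a log2 fold change of -0.65 ± 0.13 (SE), or 1.57-fold lower (limma, adjusted p = 0.00212, exact permutation p = 0.00794, the smallest that 5 against 5 allows). Without A3-3 the log2 fold change was -0.45 (adjusted p = 0.00741, limma), which is under the fold limit. H2afv, the second gene for H2A.Z, had sham values of 8.6, 8.3, 10.7, 11.2 and 12 and 28 dpi values of 8.9, 6.4, 7.9, 6.2 and 4.9. It also fell, by 0.55 ± 0.13 on the log2 scale (adjusted p = 0.00531, limma), with 4 of 5 animals below all sham animals.

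Both genes for H3.3, the replacement histone H3, fell as well. H3f3a measured 41.9, 45.9, 51.9, 51.2 and 52.6 in sham animals and 43.0, 24.7, 43.6, 32.2 and 28.2 at 28 dpi. Its log2 fold change was -0.53 ± 0.12 (adjusted p = 0.00365, limma), and 3 of the 5 animals were below the sham range while A3-1 and A4-1 were inside it. H3f3b measured 57.4, 54.3, 58.2, 52.0 and 57.4 in sham animals and 56.6, 44.8, 47.6, 36.3 and 41.5 at 28 dpi. Its log2 fold change was -0.31 ± 0.09 (adjusted p = 0.0108, limma), with A3-1 alone inside the sham range. H3f3c, the annotated pseudogene, was between 0 and 1.8 in sham animals and between 0.6 and 2.0 at 28 dpi, and the groups overlapped (adjusted p = 0.367, limma). H3f3aos, the antisense transcript, had values of 0.9 to 2.8 and 1.2 to 2.6, a log2 fold change of 0.25 ± 0.21 (adjusted p = 0.393, limma).

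H1f0 and H2afj were the other variant members that fell. H1f0 measured 51.3, 50.1, 57.4, 48.8 and 54.0 in sham animals and 45.5, 37.1, 47.2, 38.4 and 39.3 at 28 dpi, with no overlap, a log2 fold change of -0.33 ± 0.08 (adjusted p = 0.00484, limma). H2afj, which encodes the H2A.J variant, measured 8.7, 9.4, 13.6, 12.1 and 11.6 in sham animals and 7.4, 6.6, 9.0, 7.9 and 7.2 at 28 dpi. Its log2 fold change was -0.50 ± 0.13 (adjusted p = 0.00635, limma), and A4-1 alone lay inside the sham range. The remaining variant members did not pass. H2afx, whose protein is phosphorylated around DNA breaks, had a log2 fold change of -0.25 ± 0.10 (adjusted p = 0.0651, limma), although its 28 dpi values of 8.5 to 9.9 were all below the sham values of 10.5 to 11.9. The macroH2A genes H2afy (-0.10 ± 0.07, adjusted p = 0.331) and H2afy2 (-0.26 ± 0.15, adjusted p = 0.188) and the linker histone gene H1fx (-0.15 ± 0.19, adjusted p = 0.588) had log2 fold changes below 0 in limma with overlapping groups.

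In all, 3 members had every 28 dpi animal below every sham animal, namely H1f0, H2afx and H2afz. All 3 were variant genes. Over all 62 members this count is near the share of 3.75% of all genes that showed the same.

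**Figure D2:**
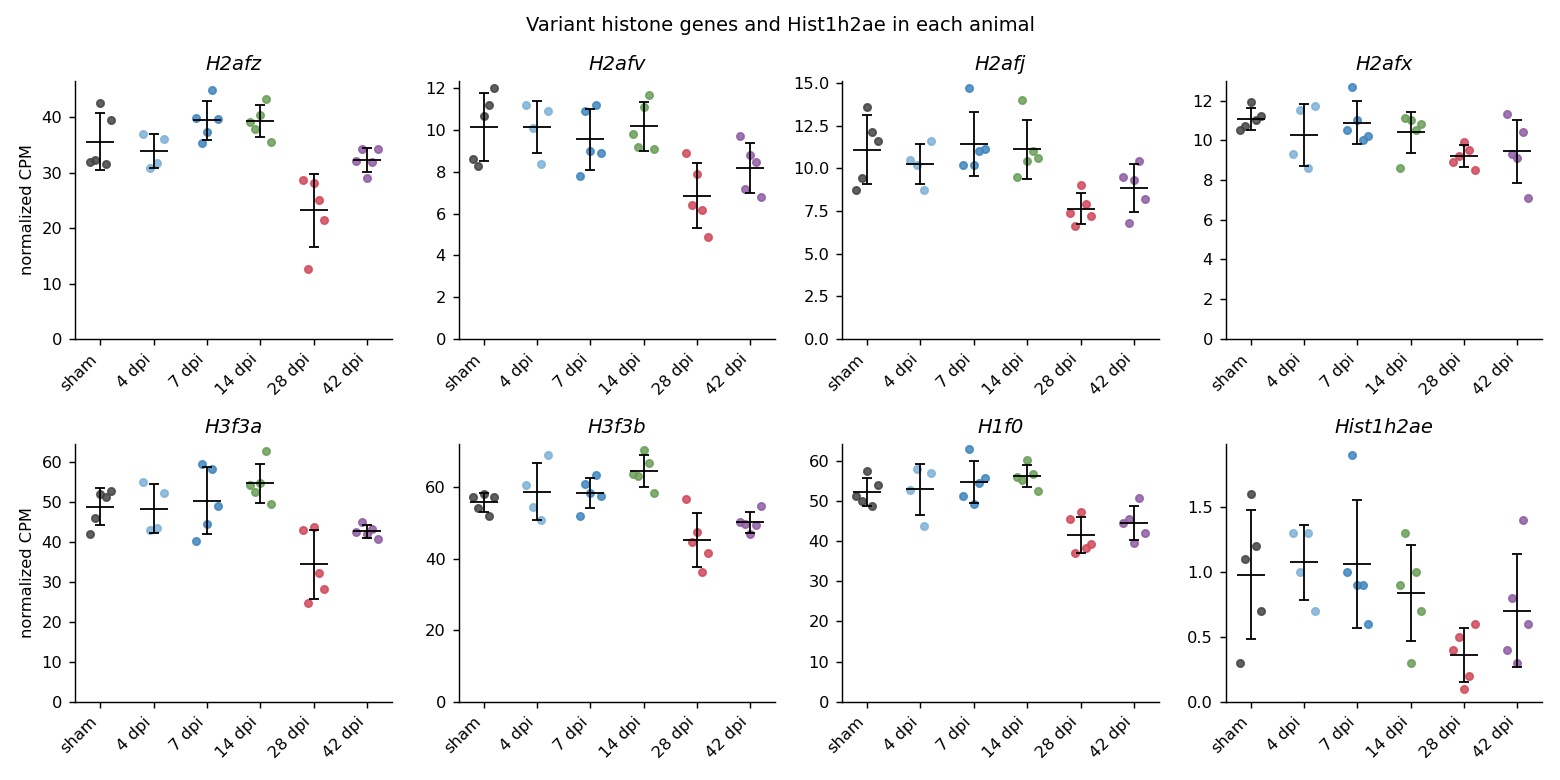
Normalized CPM of 7 variant histone genes and Hist1h2ae in each animal (dots) by group, with the mean and SD as a bar. The 28 dpi animals lie below the other groups for H2afz (12.6 to 28.6, against 31.6 to 42.6 in sham), and the 42 dpi animals (29.0 to 34.3) all lie above the 28 dpi animals.

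The replicative members that were lower at 28 dpi were of the H2A and H2B classes. Hist1h2ae, an H2A gene, measured 0.3, 1.1, 1.6, 1.2 and 0.7 in sham animals and 0.4, 0.5, 0.1, 0.2 and 0.6 at 28 dpi. Its log2 fold change was -0.74 ± 0.26 (1.67-fold lower, adjusted p = 0.0380, limma), but the groups overlapped and the values were a few rounding steps above 0. Leaving out single animals moved its adjusted p between 0.00887 and 0.130 in limma, and it rose above 0.05 without A11-4, A12-1, A12-2, A3-3, A4-1 or A4-3. Hist1h2bc, an H2B gene, measured 13.4, 16.6, 23.4, 23.3 and 20.0 in sham animals and 15.5, 10.6, 17.9, 16.9 and 10.9 at 28 dpi, a log2 fold change of -0.42 ± 0.15 (adjusted p = 0.0390, limma). No stem-loop was found in its transcripts. Hist3h2a, an H2A gene outside the large clusters, measured 13.6, 17.3, 17.4, 15.1 and 17.2 in sham animals and 11.7, 13.5, 12.7, 12.5 and 14.5 at 28 dpi, a log2 fold change of -0.30 ± 0.10 (adjusted p = 0.0236, limma). Its transcript runs on for 1643 bases after the stem-loop and has a poly(A) signal, and it overlaps Trim17 on the same strand. Leaving out single animals moved the adjusted p of Hist1h2bc up to 0.143 (over 0.05 without A12-1, A12-2, A12-3, A3-3 or A4-4) and that of Hist3h2a up to 0.0712 (over 0.05 without A11-4, A12-1, A12-3 or A4-3) in limma.

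Hist1h1e, Hist2h2aa2 and Hist1h4c are among the 3 replicative genes with the highest mean in the H1, H2A and H4 classes, respectively. Their groups overlapped at 28 dpi. Hist1h1e had values of 21.5 to 43.8 at 28 dpi and 29.0 to 53.4 in sham animals (adjusted p = 0.788, limma). For Hist2h2aa2 the ranges were 13.9 to 24.8 and 15 to 21.6 (adjusted p = 0.967, limma). For Hist1h4c they were 12.1 to 34.1 and 15 to 27.4 (adjusted p = 0.913, limma). Some 28 dpi animals lay above the sham range and some below it for Hist2h2aa2 and Hist1h4c, and for Hist1h1e 1 animal lay below it and none above. The SD of Hist1h4c was 8.34 at 28 dpi against 5.30 in sham. Hist1h2ao, an H2A gene with the largest fitted log2 fold change of all members at 28 dpi (-0.81 ± 0.43, adjusted p = 0.163, limma), was at 0 in 3 of the 5 animals at 28 dpi and shares its sequence with Hist1h2ap.

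Other values moved beside the variant genes at 28 dpi. Rn18s-rs5 was above every sham animal in 4 of 5 animals. With its log2 value as a covariate, 0 of the 9 members kept an adjusted p under 0.05 (limma), and the log2 fold change of H2afz was -0.51 ± 0.17 (adjusted p = 0.0873). Without the 14 dpi and the 28 dpi animal with the highest Rn18s-rs5 values, an alternative chosen after seeing the data, H2afz was at -0.45 (adjusted p = 0.00685, limma). After a correction for transcript length and GC content H2afz was at -0.60 (adjusted p = 0.00127, limma). All 5 oligodendrocyte markers were lower at 28 dpi, 3 with an adjusted p under 0.05 (limma), and their summed level was 4251 to 6265 against 5913 to 8799 in sham animals. The summed astrocyte markers were 1177 to 1437 at 28 dpi and 1437 to 1624 in sham animals, with 3 of 5 genes lower at an adjusted p under 0.05, and the summed neuronal markers, of which Snap25 makes up most, were 1876 to 2362 and 2130 to 2604. Of the 7 neuronal markers 3 had log2 fold changes below 0, and 1 was lower and 1 higher with an adjusted p under 0.05 (limma). No oligodendrocyte, astrocyte or neuronal marker was at 0 in any animal. Endothelial markers summed to 63.3 to 110 at 28 dpi and 54.9 to 80.5 in sham animals, where 3 of 5 animals exceeded all sham animals and 1 of 3 genes was higher with an adjusted p under 0.05 (limma). Microglial markers summed to 62.2 to 78.1 at 28 dpi and 56.2 to 66.7 in sham animals. Anterior pituitary hormone genes, foreign to the spinal cord, summed to 0.2 to 14.4 and 0.2 to 0.7. The part of these cell types in the lower variant values was not tested.

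Against 14 dpi, variant genes were also lower at 28 dpi. This comparison uses the same 28 dpi animals. Here 9 members had an adjusted p under 0.05, the variant genes H1f0, H2afj, H2afv, H2afz, H3f3a and H3f3b and 3 replicative ones, where 21.9% of all genes were lower by this rule, and 3 also passed the fold limit, against 4.22%. Over all 62 members, the share was thus under that of all genes for the adjusted p and near it with the fold limit. These 3 were H2afz (-0.80 ± 0.13, adjusted p = 5.77e-05), H3f3a (-0.69 ± 0.12, adjusted p = 7.67e-05) and Hist1h2bc (-0.60 ± 0.15, adjusted p = 0.00196), as log2 fold changes in limma. H2afz had values of 39.2, 37.9, 40.3, 43.3 and 35.6 at 14 dpi, all above its highest 28 dpi value of 28.6. H3f3b, at 58.3 to 70.5 at 14 dpi, was also above every 28 dpi animal (log2 fold change -0.52 ± 0.09, adjusted p = 5.25e-05, limma). Hist1h1c, a linker histone gene with a poly(A) signal, was the replicative member that was lower here (-0.32 ± 0.12, adjusted p = 0.0250, limma) beside Hist1h2bc and Hist3h2a. All 13 H4 genes had log2 differences above 0 between 28 and 14 dpi, from 0.09 to 0.41, and none had an adjusted p under 0.05. Beside the variant genes, all 5 oligodendrocyte markers were lower at 28 than at 14 dpi, 4 with an adjusted p under 0.05 (summed level 4251 to 6265 against 5943 to 7402), and so were all 5 microglial markers, 2 with an adjusted p under 0.05 (62.2 to 78.1 against 66.5 to 86.6). Of the 3 precursor markers 1 was called higher, and the 1 measured Schwann cell marker was lower with an adjusted p under 0.05 (limma). The 3 endothelial markers were higher, 1 with an adjusted p under 0.05 (summed level 63.3 to 110 against 54.3 to 79.3). By the same rule 1 of 5 astrocyte markers was lower, and of 7 neuronal markers 1 was lower and 1 higher. Their part in the lower variant values was not tested. The length slopes of these groups did not overlap, at -0.06 to -0.02 at 14 dpi and 0.0021 to 0.11 at 28 dpi. With the length and GC correction, the variant median was -0.35 in place of -0.44. The replicative median was 0.12 in place of 0.06, and that of all genes -0.06 in place of 0.02. The part of transcript length was not tested.

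From 28 to 42 dpi, H2afz rose again. Its values at 42 dpi were 32.1, 34.3, 29.0, 31.9 and 34.2, all above the 28 dpi animals and within or just under the sham range. The log2 difference was 0.52 ± 0.13 (adjusted p = 0.0422, limma). H2afz was the 1 member of 62 that was higher with an adjusted p under 0.05, near the share of 1.45% of all genes. The lowest 28 dpi value, 12.6 in A3-3, adds to the difference of H2afz, and its size without that animal is not given here. Within the animal code that held both times (A3), the 28 dpi animals had 28.6 and 12.6 and the 42 dpi animal 34.2. Hist3h2ba, an H2B gene named after its values were seen, was the one member that was lower, at 2.2 to 4.1 at 42 dpi against 3.6 to 6.1 at 28 dpi (log2 difference -0.54 ± 0.15, adjusted p = 0.0481, limma), with a background of 0.494%. No member passed the fold limit as well, and 0.165% of all genes did so in the lower direction. At an unadjusted p under 0.05 there were 12 lower and 4 higher members, where 8.82% of all genes were lower and 12.3% higher. Without animal A4-1 of the 28 dpi group 5 members passed both limits, and without A3-1 it was 1. Between these times the 3 precursor markers were lower, 1 with an adjusted p under 0.05 (summed level 55.9 to 62.3 at 42 dpi against 65.9 to 81.4), and 4 of 5 astrocyte markers had log2 differences above 0, 2 of them at an unadjusted p under 0.05 (limma). Their part in the H2afz value was not tested.

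At 7 dpi the H4 genes stood lowest. Of 62 members, 11 had an unadjusted p under 0.05 and were lower, 10 of them replicative, against 3.61% of all genes. No adjusted p was under 0.05, and 0 members were higher at an unadjusted p under 0.05, against 2.22% of all genes. The 11 included 7 of the 13 H4 genes, and the median log2 fold change of the H4 class was -0.46. Hist1h4m, named after its values were seen, had 13.5, 13, 11.6, 11.6 and 9.3 in sham animals and 8.9, 5.7, 3.3, 8.5 and 6.0 at 7 dpi, a log2 fold change of -0.88 ± 0.27 (adjusted p = 0.692, limma). Hist1h4h had 25.5, 26.2, 17.7, 22.3 and 18.4 in sham animals and 20.1, 13.7, 10.3, 17.5 and 14.8 at 7 dpi, a log2 fold change of -0.53 ± 0.19 (adjusted p = 0.791, limma). Every 7 dpi animal was below every sham animal for Hist1h4m and for Hist1h2bq, an H2B gene at or under 0.5 at 7 dpi, which makes 2 members where 0.583% of all genes showed this. Hist1h2bq was also named after its values were seen, and it shares 98.2% of its words with Hist1h2br. Beside these genes, the summed oligodendrocyte markers were 5012 to 6909 at 7 dpi, with 3 of 5 animals below the sham range, the microglial markers 60.6 to 90.9, with 3 of 5 above it, and the pituitary genes 0.5 to 28, with 4 of 5 above it. The red blood cell genes summed to 11.6 to 20.8, against 4.9 to 13.9 in sham animals, with 2 of 5 above. Rn18s-rs5 was above the sham range in 3 of 5 animals. Their part in the lower H4 values was not tested.

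**Figure D3:**
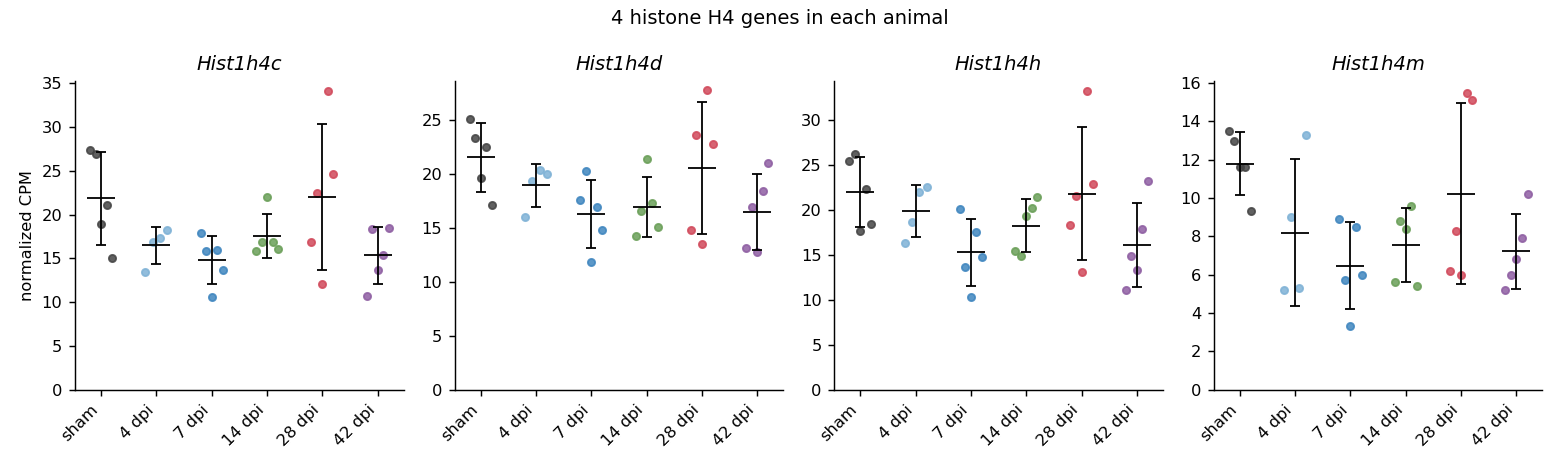
Normalized CPM of 4 histone H4 genes in each animal (dots) by group, with the mean and SD as a bar. The means at 7 dpi lie under those of sham in all 4 genes (Hist1h4m 6.48 against 11.8), and the 28 dpi animals are the most widely spread (Hist1h4c 12.1 to 34.1).

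At 42 dpi nearly every replicative gene stood below sham without passing the adjusted test. At an unadjusted p under 0.05, 24 of 62 members were lower and 0 higher, 20 of them replicative and 4 variant, where 6.35% of all genes were lower and 8.4% higher at that limit. The linker histone gene Hist1h1e had 53.4, 42.2, 33.5, 33.3 and 29.0 in sham animals and 20.8, 28.1, 23.6, 30.2 and 28.2 at 42 dpi, a log2 fold change of -0.52 ± 0.17 (adjusted p = 0.151, limma). Hist1h3e, an H3 gene, had 7.0, 5.2, 4.3, 4.5 and 3.9 in sham animals and 2.3, 3.0, 3.4, 4.1 and 3.4 at 42 dpi, a log2 fold change of -0.54 ± 0.19 (adjusted p = 0.175, limma). In both genes 4 of 5 animals lay below the sham range. Hist1h3i (-0.75 ± 0.28), Hist1h1d (-0.54 ± 0.24) and Hist2h2ac (-0.56 ± 0.19) had log2 fold changes of like size, with adjusted p of 0.201, 0.285 and 0.166 (limma). No member had all 42 dpi animals below all sham animals, against 1.1% of all genes. Beside these genes, Rn18s-rs5 was above the sham range in 5 of 5 animals at 42 dpi. The summed oligodendrocyte markers were 4926 to 5977, with 4 of 5 animals below the sham range, and all 5 markers were lower at an unadjusted p under 0.05. The markers of oligodendrocyte precursors summed to 55.9 to 62.3 against 62.2 to 80.8 in sham animals, with 4 of 5 below. Their part in the lower replicative values was not tested.

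Summed over its members, each replicative class was lower at 42 dpi than in sham. The H1 sum was 55.9 ± 7.37 against 77.3 ± 15.5 (SD, n = 5), the H2A sum 41.0 ± 6.30 against 48.9 ± 4.60, and the H2B sum 46.6 ± 5.14 against 56.1 ± 2.72. The H3 sum was 13 ± 3.26 against 20.6 ± 4.69, and the H4 sum 75.2 ± 14.3 against 104.6 ± 17.5. All 5 animals lay below the sham range for H2B, 4 for H1, and 3 each for H2A, H3 and H4. The lowest of all 29 animals in the summed replicative value was A1-1 at 42 dpi (195.2), where 32 of the 50 replicative genes were below every sham animal.

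**Figure D4:**
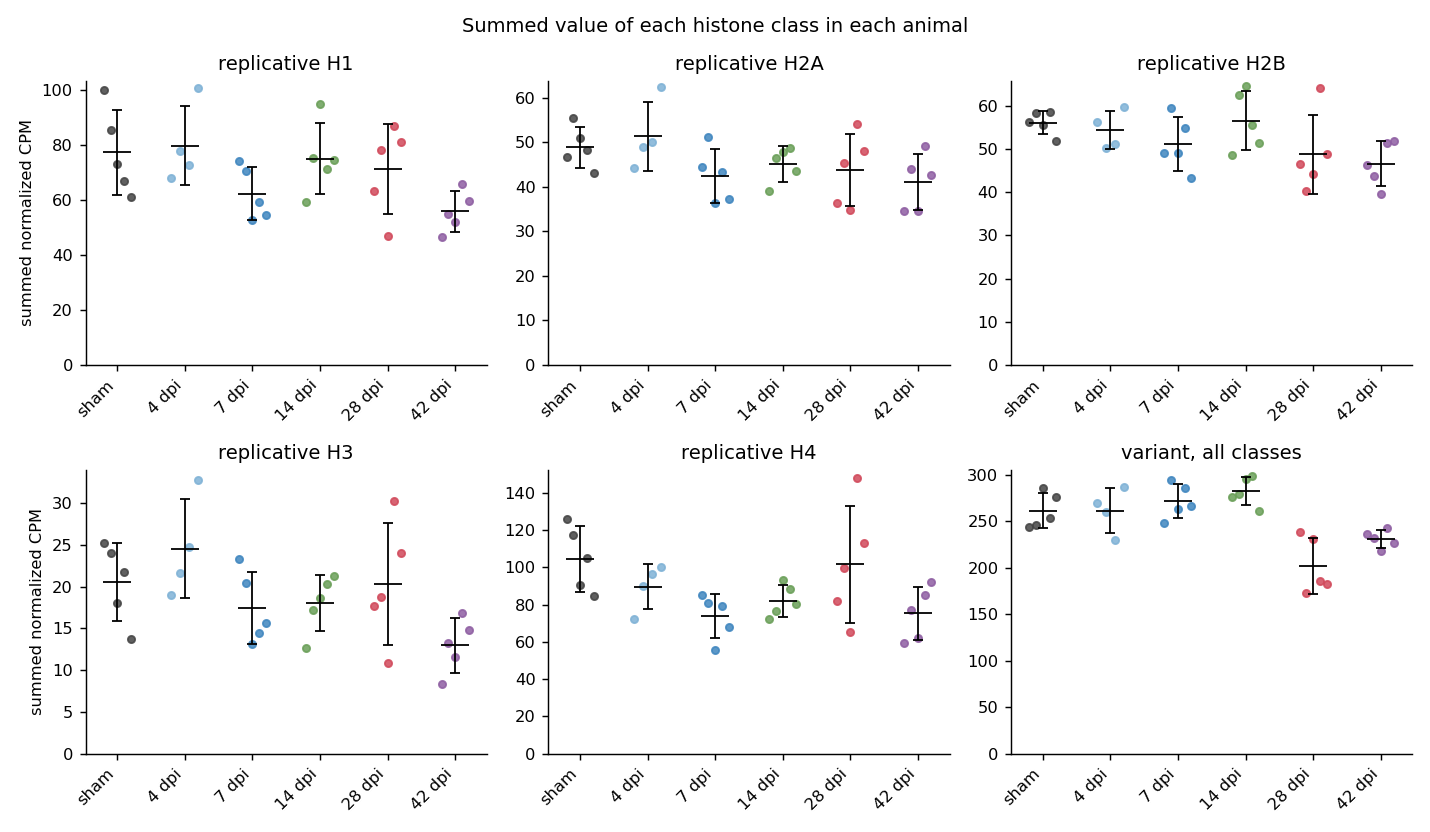
Summed normalized CPM of the 5 replicative histone classes and of all variant members in each animal (dots) by group, with the mean and SD as a bar. The variant sum is lowest at 28 dpi (172.8 to 237.7, against 244.1 to 285.8 in sham), while the H4 sum at 28 dpi (65.3 to 147.8) spans the sham range (84.4 to 126.1).

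At 4 dpi and at 14 dpi the members differed least from sham or in the same direction as at 7 dpi. At 4 dpi 3 members, all H4 genes, were lower at an unadjusted p under 0.05 and 0 were higher, where 2.37% of all genes were lower and 2.78% higher. All 8 H3 genes had log2 fold changes above 0, between 0.15 and 0.33. At 14 dpi 6 members were lower and 1 higher at that limit, against 5.36% of all genes that were lower and 6.25% that were higher, and 5 of the 6 were H4 genes. The summed H3 variants had a mean of 120.2 ± 8.44 (SD, n = 5) at 14 dpi, above the sham range of 100.2 to 111.9 in 4 of 5 animals. At 14 dpi the microglial markers summed to 66.5 to 86.6, higher than in any sham animal in 4 of 5, with 4 of 5 genes higher at an unadjusted p under 0.05. The pituitary genes were above the sham range in 5 of 5 animals and Rn18s-rs5 in 3 of 5. Their part in the 14 dpi values was not tested.

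Within the 28 dpi group the replicative and variant sums did not go together. The summed variant value was 237.7 in A3-1, 172.8 in A3-3, 230.5 in A4-1, 185.6 in A4-3 and 182.4 in A4-4. The summed replicative value in the same order was 246.0, 282.1, 202.3, 383.4 and 315.3. The 3 animals with the lowest variant sums thus had the highest replicative sums of their group, and A4-3 had the highest replicative sum of all 29 animals, with 26 replicative genes above every sham animal and 10 variant genes below. The ratio of the replicative to the variant sum was 2.07 in A4-3, 1.73 in A4-4, 1.63 in A3-3, 1.03 in A3-1 and 0.88 in A4-1, and between 0.92 and 1.45 in sham animals. Rn18s-rs5 was 417971 in A3-1, 779160 in A3-3, 44755 in A4-1, 291950 in A4-3 and 323193 in A4-4. The length slope was 0.07, 0.08 and 0.11 in A3-3, A4-3 and A4-4, and at most 0.0027 in the other animals of the group. Among sham animals, both with the code A11 had higher replicative sums (354.4 and 340.3) and lower variant sums (244.1 and 245.9) than the 3 with the code A12 (254.3 to 300.6, and 253.5 to 285.8). What moved these values within a group was not tested.

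**Figure D5:**
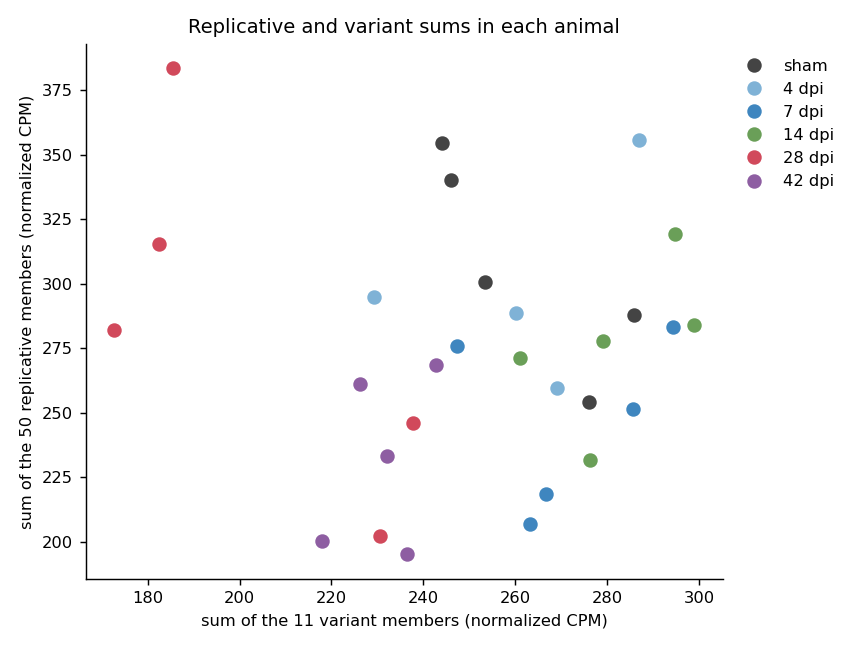
Sum of the 50 replicative members against the sum of the 11 variant members in normalized CPM, 1 dot per animal, coloured by group. There are 3 animals at 28 dpi that stand apart at variant sums of 172.8 to 185.6 with replicative sums of 282.1 to 383.4; the 42 dpi animals lie at 217.9 to 242.8 and 195.2 to 268.7.

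Genes that act on histones were described from lists of factors. Of 20 genes for histone mRNA processing, 6 were lower and 1 was higher at 28 dpi with an adjusted p under 0.05 (limma), where 13% of all genes were lower and 11.9% higher. Slbp, whose protein binds the stem-loop, fell from 21.2 ± 1.21 to 16.7 ± 2.42 (log2 fold change -0.35 ± 0.08, adjusted p = 0.00519, limma). Npat and Casp8ap2, which act at histone gene clusters, and Lsm10, part of the U7 particle that helps cut histone pre-mRNA, had log2 fold changes of -0.08, -0.04 and -0.07 with adjusted p of 0.507 or more (limma). At 42 dpi, when the replicative members were lowest, none of the 20 genes had an adjusted p under 0.05 (limma), and 2 were lower at an unadjusted p under 0.05.

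Of 24 measured histone chaperone and exchange genes, 5 were lower and 6 higher at 28 dpi with an adjusted p under 0.05, against the same 13% and 11.9% of all genes. Of the higher genes, 2 passed the fold limit, against 4.15% of all genes. Chaf1b, a subunit of the CAF-1 chaperone, was at 1.56 ± 0.43 against 0.70 ± 0.16 in sham (log2 fold change 0.76 ± 0.17, adjusted p = 0.00333, limma). Srcap, the motor of a complex that places H2A.Z into chromatin, was at 71.6 ± 10.7 against 46.3 ± 14.2 (log2 fold change 0.67 ± 0.22, adjusted p = 0.0253, limma), while H2afz itself was lower. The processing alternatives below were followed for members only. How these list values depend on transcript length or ribosomal RNA was not tested.

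Of 22 measured genes of DNA replication and cell division, 1 was lower and 3 were higher at 28 dpi with an adjusted p under 0.05, which is under the share of all genes for lower (13%) and near it for higher (11.9%). The summed level of the list was 136.7 to 168.9 at 28 dpi, above the sham range of 126 to 136.3 in 5 of 5 animals. At 4 dpi it was 135.4 to 142.3, above that range in 3 of 4. Mybl2, a cell cycle transcription factor, passed the fold limit at 28 dpi (log2 fold change 0.88 ± 0.23, adjusted p = 0.00807, limma). The proliferation marker Mki67 rose at 4 dpi, from 1.36 ± 0.44 in sham to 4.13 ± 1.39 (SD, n = 4), a log2 fold change of 1.29 ± 0.26 (adjusted p = 0.0355, limma). At the same time the summed replicative value was 259.8 to 355.5, against 254.3 to 354.4 in sham. Single genes lay outside the sham range on both sides, with 3 to 16 of the 50 replicative genes below it and 2 to 19 above it in an animal. The summed microglial markers were 73.2 to 106.1 at 4 dpi, where all 4 animals exceeded all sham animals and 1 of 5 genes was called higher, and the summed astrocyte markers 1540 to 1921, with 3 of 4 above and 1 of 5 called higher (limma). The pituitary genes summed to 2.2 to 17.3, above the 0.2 to 0.7 of the sham animals in 4 of 4, with all 3 genes higher at an unadjusted p under 0.05. The part of these cells in the higher Mki67 value was not tested. At 7 and 42 dpi no gene of the list had an adjusted p under 0.05 (limma), with 1 lower at 7 dpi and 1 higher at 42 dpi at an unadjusted p under 0.05.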

How the data were processed

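RNA-seq of spinal cord tissue from 29 mice was used. The authors depleted ribosomal RNA, sequenced single-end reads, quantified them on the mouse transcriptome (mm10) with SALMON and Tximport and normalized them with edgeR; the submitters' processing notes name R 3.4.1 and edgeR 3.14.0. The deposited values are treated as a score: CPM normalized and rounded by the authors, whose sums differ between animals. They are not counts, and depth is unknown.

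Values were analysed as log2(value + 0.5) with limma 3.58.1 under R 4.3.3 (moderated test with a trend, 1 mean per group, 6 groups in 1 fit), with Benjamini-Hochberg adjustment over 16995 genes in 7 comparisons. Calls needed a fold change above 1.5 as well as an adjusted p under 0.05. Fold changes are on the log2(value + 0.5) scale and understate those of low genes. Exact permutation tests were two-sided. The method was tested on simulated data. Features came from GENCODE M21 and promoters from RefSeq with Python 3.11.15, and positions of stem-loops and promoters are GRCm38, the build of the deposited table.

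The members, the lists and the limits were chosen with earlier results of these data known. Named members were all variant members, those called in a comparison, the 3 with the highest mean of each replicative class and the 3 with the largest fold change at 28 dpi; of the lists, called genes were named, and otherwise the first 4. Groups were read from the sample labels, with Ctrl taken as sham from the study's methods. p-values measure the spread between the animals as labelled.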

Additional observations from a re-analysis of the deposited data

Results flagged for a closer look

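Of 174 sets of a named gene's values in a group, 7 had an animal far from the others (Dixon's test of the gap to the nearest animal), and chance gives about 1 in 20. H2afj was at 14.7 in A7-3 at 7 dpi, where the next animal had 11.1. H2afx was at 8.6 in A5-1 at 14 dpi (next 10.5), and H2afy2 at 6.7 in A3-1 at 28 dpi (next 4.8). Hist1h4c was at 22.0 in A5-4 at 14 dpi (next 16.9), and Hist2h2ac at 1.0 in A4-1 at 28 dpi (next 2.4). Hist1h2ao was at 2.0 in A9-2 at 4 dpi and at 0.3 in A6-3 at 14 dpi, with the others of those groups at 0.

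H2afz differed between 28 and 42 dpi by the test of that difference itself (log2 0.52, adjusted p = 0.0422, limma), higher in 5 of 5 animals at 42 dpi. By that test 1.45% of all genes were higher, near the share of members. The lowest 28 dpi value, 12.6 in A3-3, adds to the difference of H2afz, and its size without that animal is not given here.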

How the results depend on the processing

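No member was called at 4, 7 or 14 dpi under any alternative. The 2 calls at 28 dpi became 1 with a pseudocount of 1, with genes of a mean of at least 1, with only the 2 groups compared and with the length and GC correction, 0 with the ribosomal RNA covariate, 0 without the 2 animals with the highest ribosomal RNA (chosen after seeing the data), and 29 with every animal set to the same sum without ribosomal RNA; leaving out single animals gave 0 to 4 (0 without A3-3, 1 without A12-1, A12-2 or A4-3 and 4 without A3-1). The 9 members with an adjusted p under 0.05 became 0 with the covariate and 35 with the same sum, and were 6 to 10 without single animals. Of the 9, Hist1h2bc was also above 0.05 with quantile normalization, without the trend, with only the 2 groups and without the 2 animals, Hist1h2ae with only the 2 groups, with the length and GC correction and without the 2 animals, and H3f3b with only the 2 groups (adjusted p over all alternatives up to 0.309, 0.108 and 0.117, limma). The same sum also gave 20 calls at 42 dpi and 7 in place of 3 between 28 and 14 dpi (2 to 6 without single animals; 6 without A3-1), but it moved the median of all genes by -0.47, -0.36 and -0.32 against sham (28, 42 and 14 dpi, in that order). With these shifts included, the replicative medians were -0.55, -0.72 and -0.48, and the variant medians -0.81, -0.53 and -0.27. Between 42 and 28 dpi, 1 member was called with a pseudocount of 0.1 and 1 with the animal code as a random replicate block, and 0 to 5 without single animals (5 without A4-1). The code holds animals of different groups only for A3 (28 and 42 dpi), and the estimated correlation within codes was -0.04. With the block, 10 in place of 9 members had an adjusted p under 0.05 at 28 dpi, and between 28 and 14 dpi 4 in place of 3 were called and 11 in place of 9 had an adjusted p under 0.05.

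Log2 fold changes at 28 dpi near 0 changed sign. Hist1h3f was at 0.0061 with a pseudocount of 1, 0.0308 with median centring, 0.0044 with the block and 0.0479 with the length and GC correction. Hist1h2be was at 0.0052 with quantile normalization, 0.0239 with median centring and 0.0068 with that correction, Hist1h4c at 0.0014 with quantile normalization and 0.0108 with that correction, and Hist2h2aa2 at 0.0309 with quantile normalization, 0.0209 with median centring and 0.0278 with that correction. Hist2h2bb was at -0.00298 with quantile normalization, -0.46 with the same sum, -0.0911 with the covariate and -0.0062 without the 2 animals, Hist1h3e at -0.36 with the same sum and -0.14 with the covariate, and H3f3aos at -0.13 with the same sum. Without single animals, the values ran from -0.16 to 0.11 for Hist1h1e, -0.0997 to 0.0597 for Hist1h2be, -0.0064 to 0.32 for Hist1h3e, -0.14 to 0.18 for Hist1h3f, -0.33 to 0.0944 for Hist1h3i, -0.21 to 0.15 for Hist1h4c, -0.23 to 0.0246 for Hist1h4d, -0.22 to 0.10 for Hist1h4h, -0.11 to 0.097 for Hist2h2aa2 and -0.0893 to 0.19 for Hist2h2bb. The cause of these changes was not tested. The rounding step of 0.1 limits the members under 1.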
